A study of Mus musculus with 20 samples.

Results

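The 10 genes of the imprinted growth network were followed in the mouse cochlea from postnatal day 7 (P7) to P22, in mice that carried 1 or 2 copies of the Bai1 tm2b allele. The genes, Igf2, H19, Dlk1, Meg3, Peg3, Cdkn1c, Plagl1, Grb10, Mest and Ndn, are a list of imprinted regulators of growth. All 10 were present among the 24411 gene symbols of each deposited table. The study compared Bai1tm2b/+ mice with Bai1tm2b/tm2b littermates on a C57BL/6N background. The tm2b allele lacks exons 3 and 4 of Adgrb1, the gene that encodes BAI1, an adhesion G protein-coupled receptor that binds dying cells for clearance and organizes synapses, and carries a lacZ reporter in their place. It was made in the germline by treating embryos with cell-permeable Cre and removes the long isoform of BAI1 in every tissue, while a short isoform is kept. The controls also carry 1 tm2b allele, and no wild type mice were sequenced.

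Each library was made from poly A RNA of the apical coil, with sensory epithelium and spiral ganglion neurons, of 4 pooled mice of either sex. There were 3 pools per genotype at P22 and 7 per genotype at P7. The P22 libraries and replicates 5 to 7 at P7 hold estimated counts (12 libraries with totals between 31108551 and 58807173), and replicates 1 to 4 at P7 hold whole numbers that behave as rounded TPM, a level per transcript length whose read depth is unknown. Adgrb1 itself, read as the sum of all its transcripts, had 152 to 167 CPM (counts scaled by TMM to a common total) in Bai1tm2b/+ and 100 to 105 CPM in Bai1tm2b/tm2b libraries at P22. In the P7 counts it had 32.1 to 56.4 and 21.6 to 31.2 CPM, and in the rounded TPM, where the genotypes overlapped, 7 to 12 and 9 to 12 TPM. These sums also hold transcripts without exons 3 and 4, so they check the genotype labels only in part. No hair cell or supporting cell marker, and none of the 10 general neuron markers, was at 0 throughout a group. Of 9 brain neuron markers, Emx1 was at 0 in the Bai1tm2b/+ group at P22, and Tbr1, Gad2, Emx1 and Eomes were at 0 in both groups in rounded TPM.

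Imprinted genes are read from the maternal or the paternal chromosome alone, according to methylation marks set in the germline. Many of them act in opposite directions on growth before and after birth: Igf2 and Dlk1, read from the paternal copy, favour growth, whereas H19, Cdkn1c and Grb10, read from the maternal copy in most tissues, restrain it. In the mouse many of these genes are switched down together in several organs during the weeks after birth, as growth slows. The values here sum both parental alleles and cannot show from which chromosome a transcript came.

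Igf2 and H19 lie 72.6 kb apart on the minus strand of chromosome 7 (GRCm38), at 142650766 to 142666816 and at 142575529 to 142578143. Dlk1 and Meg3 lie 77.7 kb apart on the plus strand of chromosome 12, at 109452823 to 109463336 and at 109541001 to 109571726. Cdkn1c (143458339 to 143461050), Peg3 (6703892 to 6730431) and Ndn (62346569 to 62350262) are also on chromosome 7. The others are Plagl1 on chromosome 10 (13060504 to 13131694), Grb10 on chromosome 11 (11930508 to 12038683) and Mest on chromosome 6 (30723547 to 30748465). In the GENCODE annotation 62.8% of the exon bases of Igf2 are shared with the gene model Gm49394 on the same strand, 30.7% of those of Cdkn1c lie opposite Gm44732 and 23.1% of those of Mest lie opposite Copg2, so that counts of these 3 genes are uncertain to the extent that reads could be divided or strand was not used.

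The genes H19, Igf2, Meg3 and Mest also carry microRNAs. The mature forms of the microRNAs inside these genes are shown because their level was not measured by these poly A libraries and only their host transcript was. The capitals mark the seed (bases 2 to 8), and no pair of the 9 shares a seed. Sequences are from RefSeq (GRCm38.p6) and all lie on the strand of their host.
miR-675-5p in H19, chr7:142577112-142577133: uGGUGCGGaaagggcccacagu
miR-675-3p in H19, chr7:142577078-142577099: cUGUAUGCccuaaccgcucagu
miR-483-5p in Igf2, chr7:142654968-142654989: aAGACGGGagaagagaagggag
miR-483-3p in Igf2, chr7:142654932-142654952: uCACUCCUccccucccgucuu
miR-1906 in Meg3, chr12:109544588-109544609: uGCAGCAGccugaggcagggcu
miR-770-5p in Meg3, chr12:109563710-109563731: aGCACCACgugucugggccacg
miR-770-3p in Meg3, chr12:109563744-109563765: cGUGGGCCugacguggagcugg
miR-335-5p in Mest, chr6:30741314-30741336: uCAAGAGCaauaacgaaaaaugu
miR-335-3p in Mest, chr6:30741354-30741375: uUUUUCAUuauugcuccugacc

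The promoter table of RefSeq held 15 start sites of 8 of the 10 members. The 250 bases before each start were searched on both strands for GGGGCCCC, a core bound by the zinc finger factor PLAGL1 and hence a link from one member to others, for the TATA box TATAAA and for the GC box GGGCGG. GGGGCCCC was found in 0.889% of all 32851 promoters of this length and, among the members, only at Peg3, 201 bases before its start. TATAAA was found in 12.4% of all promoters and, among the members, only at the first start of Meg3, where copies on both strands overlap. GGGCGG was present in 32.7% of all promoters and at starts of Mest, Igf2, Plagl1 and Grb10. The Grb10 promoter with the most CpG dinucleotides held 40 in 250 bases, against a median of 6 over all promoters. The windows of Peg3 and Meg3 are shown, with the matches to GGGGCCCC and TATAAA in capitals, because no other member's window held either motif.
Peg3 promoter, minus strand, chr7:6730420-6730669: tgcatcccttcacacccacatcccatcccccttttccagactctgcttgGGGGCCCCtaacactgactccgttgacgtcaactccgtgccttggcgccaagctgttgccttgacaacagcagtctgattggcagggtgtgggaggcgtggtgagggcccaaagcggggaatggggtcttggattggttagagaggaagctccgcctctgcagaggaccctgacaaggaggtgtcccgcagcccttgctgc
Meg3 promoter, plus strand, chr12:109540746-109540995: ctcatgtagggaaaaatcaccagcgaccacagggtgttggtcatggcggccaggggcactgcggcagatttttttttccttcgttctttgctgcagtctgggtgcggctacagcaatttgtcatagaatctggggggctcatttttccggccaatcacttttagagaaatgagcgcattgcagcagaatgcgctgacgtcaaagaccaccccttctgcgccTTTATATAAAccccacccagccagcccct

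At P7 the members differed widely in level, and the transcripts of the H19 and Igf2 locus were the most abundant. Levels per transcript length can be compared between genes only in the 8 libraries in rounded TPM. H19, a long non-coding RNA, had 1788 ± 389 TPM (SD, n = 8 over both genotypes), and Igf2, the fetal insulin-like growth factor, had 1044 ± 207 TPM. Their ranges overlapped (1205 to 2470 and 714 to 1374 TPM), although H19 was above Igf2 within each of the 8 libraries. Cdkn1c, which encodes the cell cycle inhibitor p57, followed with 268.5 ± 22.7 TPM, and Ndn, which encodes necdin, a growth suppressor of neurons, with 223 ± 18.9 TPM. Ranges of these neighbours overlapped too, from 237 to 303 and from 201 to 259 TPM.

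**Figure D1:**
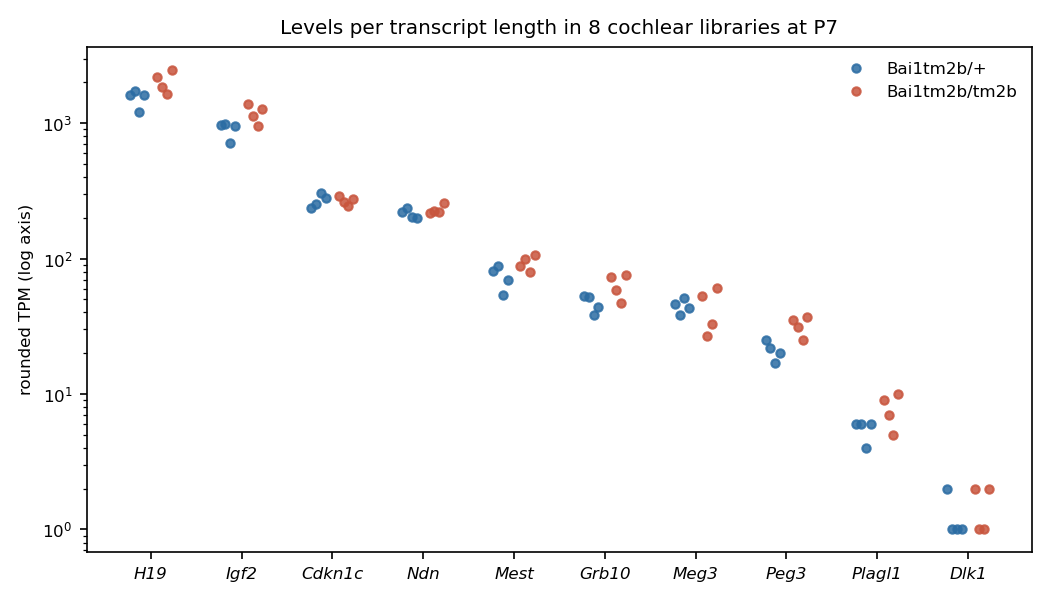
Levels of the 10 genes in the 8 P7 libraries with rounded TPM, on a log axis, ordered by their mean, with Bai1tm2b/+ libraries in blue and Bai1tm2b/tm2b libraries in red (4 pools each, 1 point per pool). H19 and Igf2 lie above the other 8 genes, and Dlk1 lies at 1 to 2 TPM in every library.

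Below these, Mest, a predicted hydrolase expressed in mesoderm, had 83.2 ± 16.3 TPM, and Grb10, an adaptor that restrains insulin and IGF receptor signalling, 55.2 ± 13.5 TPM. Meg3, the maternally read non-coding RNA next to Dlk1, had 44.0 ± 11.1 TPM and Peg3, a zinc finger protein, 26.5 ± 7.17 TPM. From Mest to Peg3 each gene overlapped with the next in the order. Plagl1, the zinc finger factor itself, had 6.62 ± 2.0 TPM and Dlk1, a membrane ligand related to the Notch ligands, 1.38 ± 0.518 TPM, and neither overlapped with its neighbours. The gap between Ndn and Mest, and that between Igf2 and Cdkn1c, were also free of overlap.

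From P7 to P22 the network came down in part: 6 of 10 members fell and 2 rose in Bai1tm2b/+ mice. The same 6 and 2 did so in Bai1tm2b/tm2b mice. Both that rose (Meg3 and Ndn) were lower at P22 when libraries were scaled to neuron markers, which themselves rose with age. That scaling moved the median log2 change of all genes to -3.17 and -3.07, so it cannot decide the direction of single genes. The 12 libraries in counts were fitted together (edgeR quasi-likelihood test, 16314 genes), and a gene was called when its Benjamini-Hochberg adjusted p was under 0.05, its log2 fold change passed 0.5 in either direction and the standard error (SE) was under 0.5. Of all genes tested, 27.0% were called lower and 24.8% higher in Bai1tm2b/+, and 25.1% and 24.2% in Bai1tm2b/tm2b. The median log2 change of the members was -1.25 and -1.12 in the 2 genotypes, against -0.06 and -0.04 over all genes. The levels of 9 and 8 members did not overlap between ages, against 78.3% and 74.0% of all genes. P7 and P22 libraries come from separate tables and share no replicate, so age and table cannot be told apart. In bulk tissue, fewer cells of a type and less RNA per cell cannot be told apart either.

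**Figure D2:**
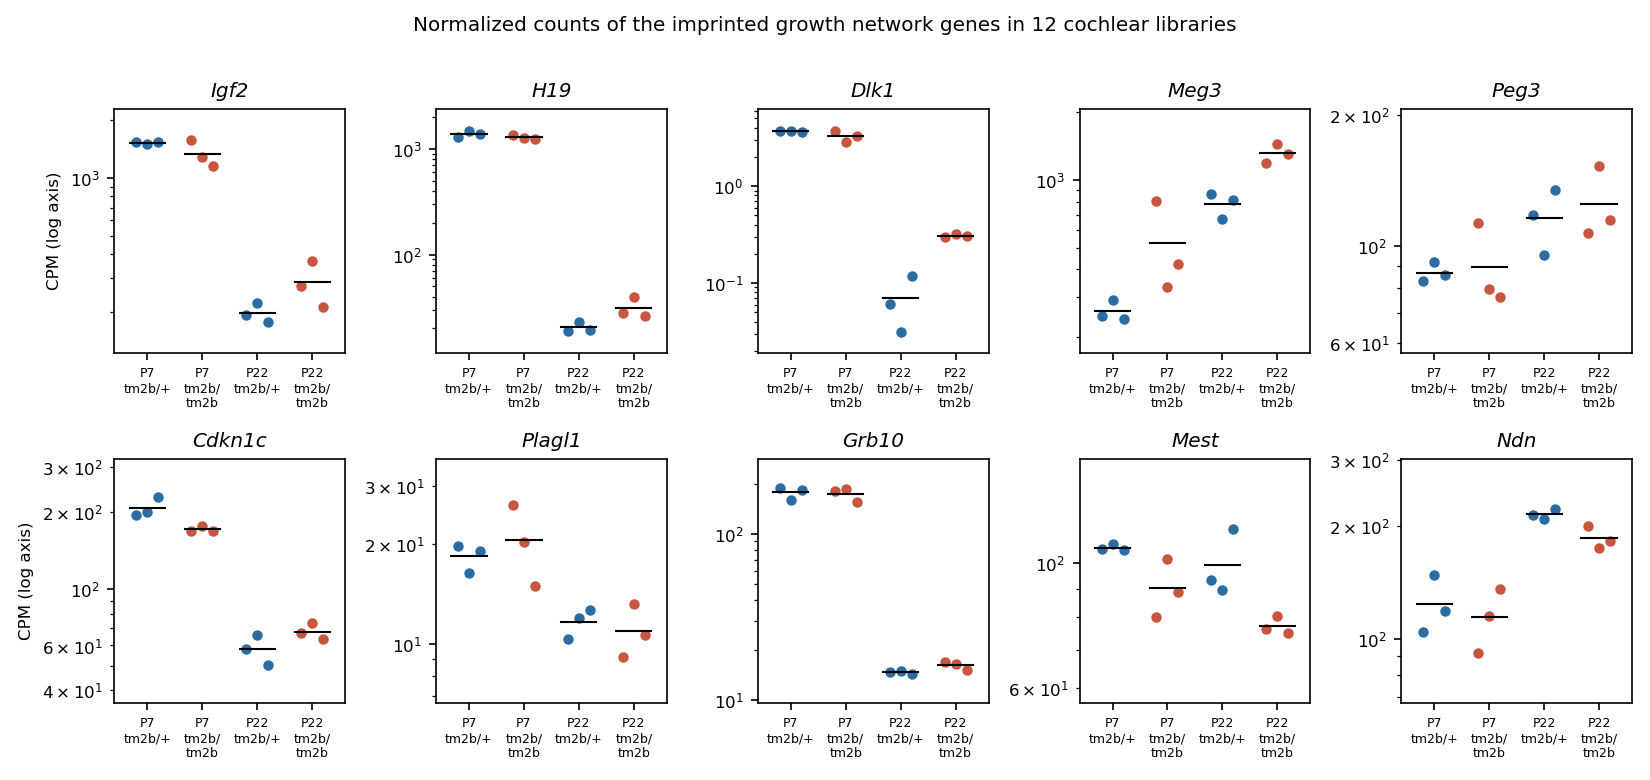
Normalized counts (CPM after TMM scaling over 12 libraries, log axis) of the 10 genes in P7 replicates 5 to 7 and P22 replicates 1 to 3, with Bai1tm2b/+ in blue and Bai1tm2b/tm2b in red, 1 point per pool of 4 mice and a line at the mean. H19, Igf2, Dlk1 and Grb10 drop by the largest factors from P7 to P22, whereas Meg3 and Ndn lie higher at P22 under this scaling.

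H19 showed the deepest fall. In Bai1tm2b/+ libraries it had 1294, 1469 and 1383 CPM at P7 and 18.9, 22.8 and 19.5 CPM at P22. In Bai1tm2b/tm2b libraries it had 1345, 1269 and 1252 CPM at P7 and 28.2, 40.0 and 26.3 CPM at P22. Every P22 library was thus far below every P7 library. The log2 change was -6.08 (SE 0.172, adjusted p = 2.37e-10, edgeR) in Bai1tm2b/+, a fall of 67.7-fold, and -5.35 (SE 0.166, adjusted p = 5.52e-10, edgeR) in Bai1tm2b/tm2b, a fall of 40.9-fold.

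Igf2, which shares enhancers with H19, fell less far. It had 1545, 1505 and 1529 CPM at P7 and 193, 223 and 178 CPM at P22 in Bai1tm2b/+ libraries. In Bai1tm2b/tm2b libraries it had 1567, 1289 and 1148 CPM at P7 and 275, 369 and 213 CPM at P22. The ages did not overlap, and the spread was widest in the Bai1tm2b/tm2b pools at both ages. The log2 change was -2.95 (SE 0.187, adjusted p = 3.12e-08, edgeR) and -2.22 (SE 0.182, adjusted p = 3.00e-07, edgeR), falls of 7.71-fold and 4.67-fold. The ratio of H19 to Igf2 counts within a library, which no scaling between libraries can alter, was 0.906 ± 0.0691 (SD, n = 3) in Bai1tm2b/+ and 0.978 ± 0.116 in Bai1tm2b/tm2b at P7. At P22 it was 0.103 ± 0.00581 and 0.111 ± 0.0109. The balance of this gene pair thus moved in both genotypes, with no overlap between ages. Igf2 and H19 together took 0.264% to 0.342% of all counts in the P7 libraries and 0.0172% to 0.0382% at P22.

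At the Dlk1 and Meg3 locus the protein-coding and the non-coding gene moved in opposite directions. Dlk1 had 3.74, 3.66 and 3.61 CPM at P7 and 0.0614, 0.0314 and 0.117 CPM at P22 in Bai1tm2b/+ libraries, the latter resting on 2, 1 and 4 counts. In Bai1tm2b/tm2b libraries it had 3.69, 2.83 and 3.31 CPM at P7 and 0.298, 0.318 and 0.307 CPM at P22, from 11, 12 and 11 counts. No P22 library came near a P7 library. The log2 change was -5.63 (SE 0.315, adjusted p = 1.18e-08, edgeR) and -3.40 (SE 0.251, adjusted p = 1.28e-07, edgeR). With DESeq2 the SE in Bai1tm2b/+ was 0.580, past the limit for a call, at a change of -5.66. Taken from the summed counts alone, the level at P7 was 51.6 times that at P22 in Bai1tm2b/+ (547 against 7 counts, 95% exact binomial interval 24.9 to 129) and 10.7 times in Bai1tm2b/tm2b (416 against 34 counts, interval 7.56 to 15.7). These intervals cover counting error only.

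Meg3 rose. It had 247, 292 and 242 CPM at P7 and 864, 674 and 814 CPM at P22 in Bai1tm2b/+ libraries, and 810, 334 and 421 CPM at P7 and 1191, 1450 and 1305 CPM at P22 in Bai1tm2b/tm2b libraries. The first Bai1tm2b/tm2b pool at P7 (replicate 5) was well above its group, yet below every P22 pool of its genotype. The log2 change was 1.59 (SE 0.256, adjusted p = 0.000105, edgeR) and 1.33 (SE 0.254, adjusted p = 0.000437, edgeR), a rise of 3.01-fold and 2.52-fold. Rian and Mirg, non-coding RNAs read downstream of Meg3 on the same strand, also rose, Rian by 1.53 and 1.57 and Mirg by 2.25 and 2.02 on the log2 scale.

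Of Grb10, Cdkn1c and Plagl1, Grb10 fell the most. It had 189, 160 and 182 CPM at P7 and 14.9, 15.1 and 14.3 CPM at P22 in Bai1tm2b/+, and 182, 186 and 155 CPM at P7 and 16.9, 16.6 and 15.2 CPM at P22 in Bai1tm2b/tm2b. The P22 pools lay close together and far below P7, with a log2 change of -3.59 (SE 0.0934, adjusted p = 1.27e-10, edgeR) and -3.42 (SE 0.0923, adjusted p = 2.14e-10, edgeR). Cdkn1c had 195, 201 and 230 CPM at P7 and 58.0, 66.1 and 50.2 CPM at P22 in Bai1tm2b/+, and 169, 177 and 168 CPM at P7 and 66.9, 73.6 and 63.5 CPM at P22 in Bai1tm2b/tm2b. Again no pool overlapped between ages, and the log2 change was -1.84 (SE 0.102, adjusted p = 1.07e-08, edgeR) and -1.33 (SE 0.100, adjusted p = 1.45e-07, edgeR). Counts of Cdkn1c relative to Igf2 within a library were 0.137 ± 0.0124 and 0.131 ± 0.0202 at P7 and 0.293 ± 0.00932 and 0.247 ± 0.0492 at P22 (Bai1tm2b/+ and Bai1tm2b/tm2b, SD, n = 3). Plagl1 had the smallest fall of those called, from 16.4 to 19.8 CPM at P7 to 10.4 to 12.7 CPM at P22 in Bai1tm2b/+, and from 14.9 to 26.4 CPM to 9.14 to 13.2 CPM in Bai1tm2b/tm2b. Its log2 change was -0.65 (SE 0.189, adjusted p = 0.00763, edgeR) and -0.90 (SE 0.189, adjusted p = 0.000929, edgeR).

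**Figure D3:**
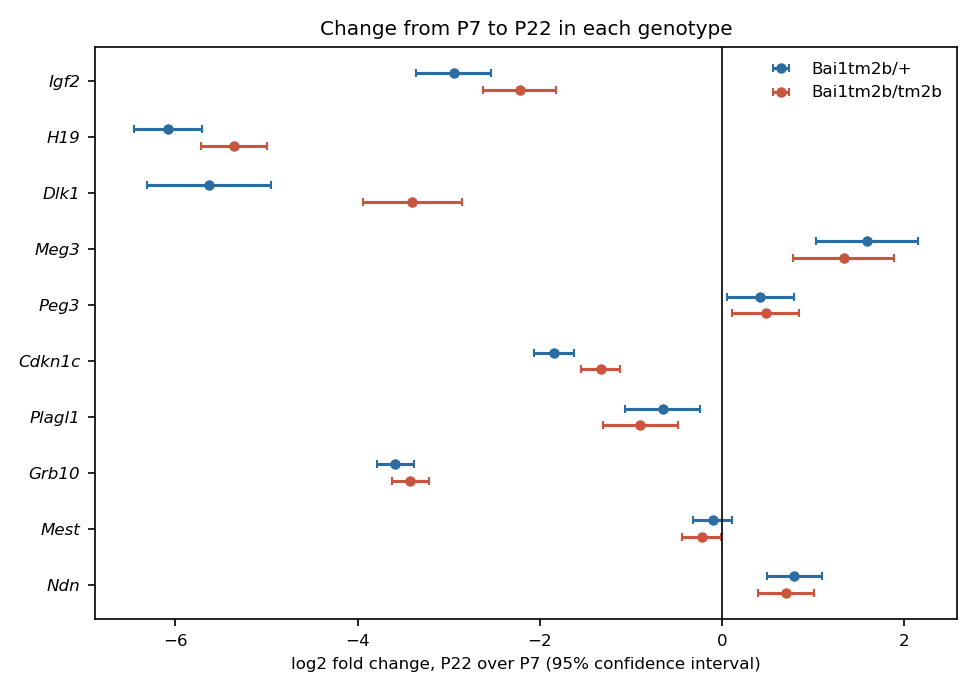
Log2 fold change from P7 to P22 of each gene (horizontal axis) in Bai1tm2b/+ (blue) and Bai1tm2b/tm2b (red) libraries, with 95% confidence intervals from the edgeR fit of 12 libraries. H19, Dlk1, Grb10, Igf2, Cdkn1c and Plagl1 lie left of 0, Meg3 and Ndn lie right of 0, and Mest and Peg3 lie within 0.5 of it in both genotypes. With scaling to neuron markers (not drawn), which moved the median of all genes to -3.17 and -3.07, the changes of Meg3 and Ndn were negative.

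Ndn rose, and Peg3 and Mest were not called. Ndn had 105, 148 and 119 CPM at P7 and 214, 208 and 222 CPM at P22 in Bai1tm2b/+, and 91.8, 115 and 136 CPM at P7 and 200.4, 175 and 182 CPM at P22 in Bai1tm2b/tm2b. All P22 pools were above all P7 pools, with a log2 change of 0.79 (SE 0.140, adjusted p = 0.000230, edgeR) and 0.70 (SE 0.140, adjusted p = 0.000649, edgeR). With library totals in place of TMM, which shifted the median of all genes to -0.35 and -0.32, Ndn had 0.50 and 0.42 and was not called. Peg3 had 83.1 to 91.9 CPM at P7 and 95.4 to 135 CPM at P22 in Bai1tm2b/+, and 76.4 to 113 CPM and 107 to 153 CPM in Bai1tm2b/tm2b, where the ages overlapped. Its log2 change of 0.42 (SE 0.169, adjusted p = 0.0412, edgeR) and 0.48 (SE 0.169, adjusted p = 0.0219, edgeR) stayed under the size limit of 0.5, which it passed without P22 Bai1tm2b/+ replicate 2 (0.54), or without P22 Bai1tm2b/tm2b replicate 1 (0.58) or 3 (0.54) or P7 Bai1tm2b/tm2b replicate 5 (0.68). Mest had 105 to 108 CPM at P7 and 89.3 to 115 CPM at P22 in Bai1tm2b/+, and 80.3 to 101 CPM and 75.0 to 80.5 CPM in Bai1tm2b/tm2b. Its log2 change was -0.10 (95% interval -0.32 to 0.11) and -0.22 (interval -0.44 to -0.01).

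The make-up of the libraries moved with age as well. Summed over 14 mesenchyme and fibroblast markers, the level was 7497 to 8509 CPM in Bai1tm2b/+ and 6424 to 8130 CPM in Bai1tm2b/tm2b pools at P7, and 1747 to 2126 and 1731 to 2052 CPM at P22. Of these markers 13 fell in Bai1tm2b/+ and 11 in Bai1tm2b/tm2b, among them Col3a1 (log2 change -3.48 and -3.00) and Postn (-3.40 and -3.35). The sum of 15 proliferation genes went from 170 to 295 CPM over both genotypes at P7 to 32.5 to 57.0 CPM at P22, and 12 and 14 of the 15 fell. The sum of 10 neuron markers moved the other way, from 1161 to 2932 CPM at P7 to 11176 to 17064 CPM at P22, with all 10 called higher in each genotype. The sum of 8 bone markers went from 503 to 1113 CPM over both genotypes at P7 to 92.6 to 215 CPM at P22, with 7 called lower in Bai1tm2b/+ and 6 in Bai1tm2b/tm2b (median log2 change -3.19 and -3.31). The sum of 10 Schwann cell markers went from 5697 to 16344 CPM to 21792 to 26829 CPM, with 5 and 8 called higher and 1 lower in each genotype. No marker of these 5 lists was at 0 in any group as a whole. The part of these shifts in the members' changes was not tested. When libraries were scaled to the neuron markers, all genes shifted by a median of -3.17 and -3.07 on the log2 scale, and the changes of Meg3 (-1.50 and -1.78), Ndn (-2.27 and -2.30) and Peg3 (-2.69 and -2.59) became negative.

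The size of the change with age was compared between genotypes as an interaction in the same fit. No member was called, against 0.0306% of all genes called lower and 0% higher, while 4 of the 10, against 10.2% of all genes, had an unadjusted p under 0.05. DESeq2 called 1 member among 119 genes. The largest positive differences (Bai1tm2b/tm2b minus Bai1tm2b/+) were those of Dlk1 (difference of log2 changes 2.23, 95% interval 1.28 to 3.19, adjusted p = 0.118, edgeR), H19 (0.73, interval 0.30 to 1.16, adjusted p = 0.265, edgeR), Igf2 (0.72, interval 0.19 to 1.26, adjusted p = 0.338, edgeR) and Cdkn1c (0.51, interval 0.21 to 0.81, adjusted p = 0.270, edgeR). The Dlk1 value rests at P22 on only 7 counts in the Bai1tm2b/+ and 34 in the Bai1tm2b/tm2b libraries. The difference for H19 was called by DESeq2 (0.69, adjusted p = 0.0387). The difference for Dlk1 was called by edgeR without P7 Bai1tm2b/tm2b replicate 5 (2.33, adjusted p = 0.0450). For the other 6 members it ranged from -0.26 for Meg3 to 0.17 for Grb10, and the intervals of all 6 held 0.

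**Figure D4:**
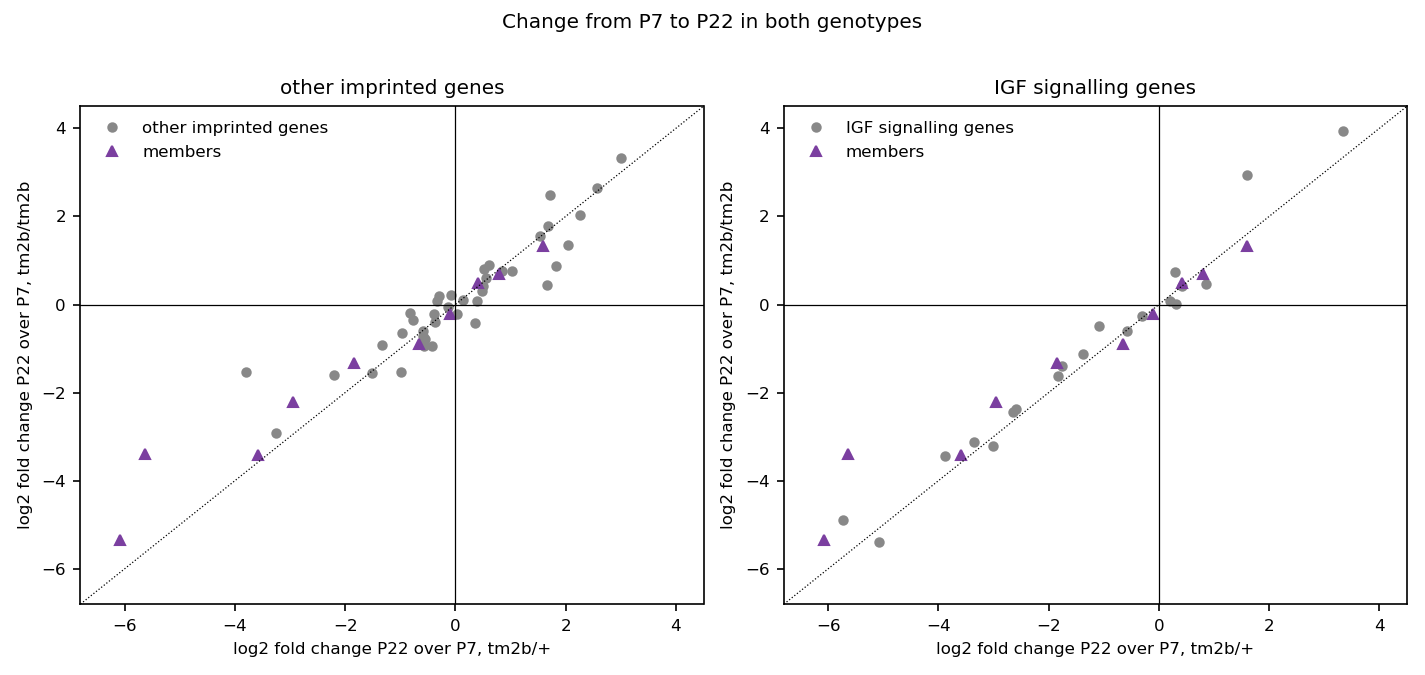
Log2 fold change from P7 to P22 in Bai1tm2b/+ (horizontal axis) and Bai1tm2b/tm2b (vertical axis) for the 10 members (triangles) beside 41 other imprinted genes (left, circles) and 20 IGF signalling genes (right, circles), with the dotted line where both are equal. Dlk1 lies farthest from the line among the members, at -5.63 and -3.40, and rests at P22 on 7 and 34 counts.

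Other imprinted genes did not share a direction. Of 42 listed, 41 were tested. In Bai1tm2b/+ 12 were called higher and 10 lower with age, against 24.8% and 27.0% of all genes. In Bai1tm2b/tm2b 12 were called higher and 11 lower, against 24.2% and 25.1% of all genes. Their median log2 change was -0.08 and 0.07. Those that fell included Peg12 (-3.25 and -2.92), the amino acid transporter gene Slc38a4 (-2.20 and -1.59), the retrotransposon-derived gene Peg10 (-1.52 and -1.55) and Zim1, a neighbour of Peg3 (-0.99 and -1.54). Those that rose included Nap1l5 (3.01 and 3.32), Snrpn, which encodes a splicing protein abundant in neurons (2.57 and 2.64), Rasgrf1, an exchange factor for Ras (2.04 and 1.35), and Zrsr1 (1.68 and 1.79). Snrpn rose from 129 ± 40.4 to 767 ± 47.5 CPM and Nap1l5 from 53.9 ± 23.3 to 435 ± 18.2 CPM in Bai1tm2b/+ (SD, n = 3).

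The IGF axis around Igf2 mostly came down. Of 20 genes, 12 fell and 3 rose in Bai1tm2b/+, against 27.0% and 24.8% of all genes. In Bai1tm2b/tm2b 11 fell and 3 rose, against 25.1% and 24.2% of all genes. Their median log2 change was -1.23 and -0.86. Among ligands, Igf1 fell from 263 ± 24.5 to 32.6 ± 19.6 CPM in Bai1tm2b/+ (log2 change -3.01) and from 248 ± 15.3 to 26.5 ± 3.25 CPM in Bai1tm2b/tm2b (-3.22). Of the receptors, Igf2r, which takes up and degrades IGF2 and is itself imprinted, fell by 0.58 and 0.59 on the log2 scale, whereas Igf1r, the signalling receptor, had -0.30 and -0.26 and was not called. Binding proteins moved both ways, with Igfbp3 at -3.88 and -3.43, Igfbp4 at -2.59 and -2.38, and Igfbp6, which binds IGF2 preferentially, at 3.34 and 3.94. Igf2bp1, an RNA-binding protein of Igf2 messenger RNA, fell from 5.03 ± 1.33 to 0.0926 ± 0.0843 CPM in Bai1tm2b/+ (-5.73), with a log2 change of -4.88 in Bai1tm2b/tm2b. The proteases that release IGFs from binding proteins parted, Pappa2 at -5.08 and -5.39 and Pappa at 1.60 and 2.95. Pappa2 had a mean of 0.324 CPM in Bai1tm2b/+ and 0.243 CPM in Bai1tm2b/tm2b at P22. Igf2bp1 was too low at P22 for the genotype test. Both lie near the floor at P22, so the sizes of their falls are uncertain.

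Within P22, the genotypes were compared to ask whether loss of the long BAI1 isoform accompanies a different level of these genes in the young adult cochlea. H19 and Meg3 were higher in Bai1tm2b/tm2b than in Bai1tm2b/+ mice and no member was called lower, where 1.74% of the 15443 genes tested were called higher and 1.41% lower. The levels of 6 of the 10 members, Dlk1 among them, did not overlap between the genotypes, against 33.7% of all genes. Dlk1 rested on 7 counts in Bai1tm2b/+ and 34 in Bai1tm2b/tm2b libraries. It passed the filter on low counts only through the latter, so its lack of overlap carries no weight. The median log2 difference of the members, Dlk1 included, was 0.19, against 0.01 over all genes.

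Meg3 had the firmest difference. Its 3 Bai1tm2b/tm2b pools (1191, 1450 and 1305 CPM) were all above its 3 Bai1tm2b/+ pools (864, 674 and 814 CPM), with a log2 difference of 0.75 (SE 0.0993, adjusted p = 0.00240, edgeR), or 1.69-fold. It was called with each of the 6 libraries left out, at 0.65 to 0.83. Of its neighbours, Rian (0.11, adjusted p = 0.275, edgeR) and Mirg (0.42, adjusted p = 0.0239, edgeR) were not called, Mirg for its size. H19 also lay higher in all 3 Bai1tm2b/tm2b pools (28.2, 40.0 and 26.3 against 18.9, 22.8 and 19.5 CPM), with a log2 difference of 0.63 (SE 0.145, adjusted p = 0.0196, edgeR), or 1.55-fold. That call was lost without Bai1tm2b/+ replicate 1 (0.58, adjusted p = 0.0768) or 3 (0.60, adjusted p = 0.0737), and without Bai1tm2b/tm2b replicate 2 (0.43, under the size limit), and it held without any other (edgeR).

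**Figure D5:**
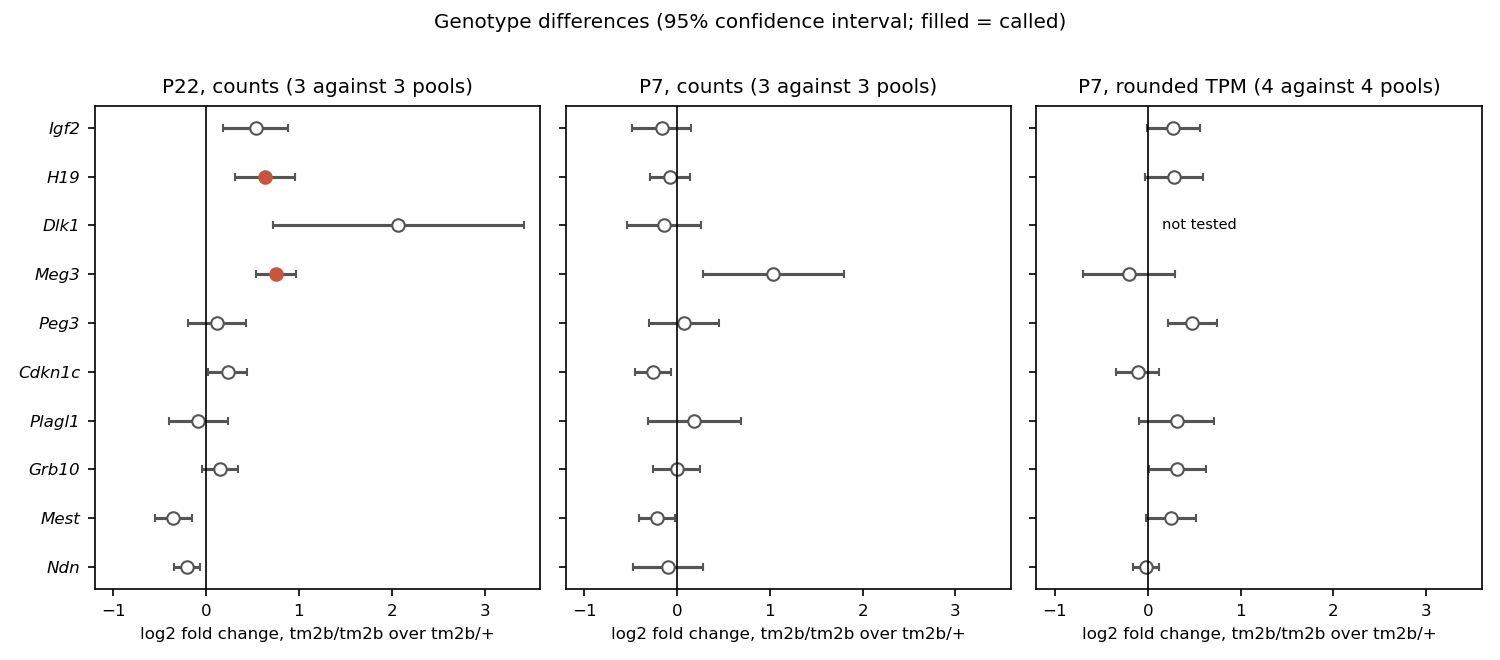
Log2 fold change of Bai1tm2b/tm2b over Bai1tm2b/+ (horizontal axis) with 95% confidence intervals at P22 in counts, at P7 in counts (both edgeR) and at P7 in rounded TPM (limma), with filled points for called genes. H19 and Meg3 at P22 are the only filled points, and Dlk1 at P22 has the widest interval, from 0.72 to 3.42.

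Igf2 and Dlk1, the growth-promoting partners at these loci, were not called. Igf2 had a log2 difference of 0.54 (SE 0.159, adjusted p = 0.0507, edgeR), and the lowest Bai1tm2b/tm2b pool (213 CPM) was below the highest Bai1tm2b/+ pool (223 CPM). Igf2 was called without Bai1tm2b/+ replicate 2 (0.63) or Bai1tm2b/tm2b replicate 3 (0.71), and its difference was 0.31 without Bai1tm2b/tm2b replicate 2. Dlk1 had 34 counts in 3 Bai1tm2b/tm2b libraries and 7 in 3 Bai1tm2b/+ libraries, a ratio of 4.33 (95% exact binomial interval 1.89 to 11.6, counting error only). Its fitted log2 difference of 2.07 had an SE of 0.613, past the limit of 0.5 (adjusted p = 0.0509, edgeR), it passed the filter on low counts only through the Bai1tm2b/tm2b libraries, and leaving out each library in turn gave no call (adjusted p from 0.0711 to 0.162, edgeR).

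In the opposite direction, Mest had 93.1, 89.3 and 115 CPM in Bai1tm2b/+ and 76.2, 80.5 and 75.0 CPM in Bai1tm2b/tm2b pools without overlap, a log2 difference of -0.35 (SE 0.0897, adjusted p = 0.0305, edgeR) that stayed under the size limit. Ndn pools did not overlap either (208 to 222 and 175 to 200.4 CPM), with a difference of -0.20 (adjusted p = 0.0605, edgeR). Grb10 was the remaining member without overlap, at 14.3 to 15.1 and 15.2 to 16.9 CPM and a difference of 0.15 (adjusted p = 0.301, edgeR). The differences of Cdkn1c (0.23, 95% interval 0.02 to 0.45), Peg3 (0.12, interval -0.20 to 0.43) and Plagl1 (-0.08, interval -0.40 to 0.24) were not called. Among the 39 other imprinted genes tested, Nnat (0.58, adjusted p = 0.00432) and Kcnq1ot1 (0.52, adjusted p = 0.0352) were called higher and Usp29 lower (-0.67, adjusted p = 0.0206, edgeR). The 19 IGF signalling genes tested had a median difference of 0.05.

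Marker lists also differed between the P22 genotypes. The summed central glia markers were at 477 to 622 CPM in Bai1tm2b/+ and 686 to 1067 CPM in Bai1tm2b/tm2b pools, with 4 of 7 called higher (Olig1, Olig2, Gfap and Mog). Within each genotype the pool with the highest sum (replicate 2) was also the pool with the highest Igf2 and H19. The summed supporting cell markers were at 1281 to 1436 and 1492 to 1580 CPM, with Fgfr3 called higher and Prox1 lower among 10. The summed proliferation genes were at 32.5 to 35.27 and 35.33 to 57.0 CPM, with Mki67 called higher and 12 of 13 tested above 0. The summed hair cell markers were at 494 to 514 and 633 to 730 CPM, with 3 of 10 called higher, and the summed neuron markers at 15106 to 17064 and 11176 to 12818 CPM, with Nefh called lower. The mesenchyme and fibroblast sums overlapped (1747 to 2126 and 1731 to 2052 CPM). The part of these in the members' differences was not tested. With libraries scaled to the neuron markers, the median of all genes shifted to 0.43. Of the 15443 genes tested, 4933 were then called higher and 31 lower. Under that scaling 6 members were called higher, and the differences of Mest (0.08), Ndn (0.22) and Plagl1 (0.35) became positive.

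At P7 no member was called in either set of libraries. In the counts (16026 genes, edgeR), 0% of all genes were called in either direction, 763 (4.76%) had an unadjusted p under 0.05 and DESeq2 called 48. An unadjusted p under 0.05 was reached by 3 of the 10 members (edgeR), and DESeq2 called 0 of them, while the levels of 3 of the 10 members, against 10.4% of all genes, did not overlap between genotypes. These were Meg3, Cdkn1c and Mest. Meg3 had 810, 334 and 421 CPM in Bai1tm2b/tm2b and 247, 292 and 242 CPM in Bai1tm2b/+ pools, a log2 difference of 1.04 (SE 0.322, adjusted p = 0.894, edgeR). It was 0.54 without Bai1tm2b/tm2b replicate 5, the pool at 810 CPM. The non-coding RNA Snhg11 was also the highest of its group there (389 CPM against 184 and 244 CPM). It was named for its likeness to Meg3 over these same libraries, so this is no separate sign. In that pool the summed proliferation genes were the highest of the group too (295 CPM against 170 and 190 CPM). Its summed supporting cell markers (2478 CPM against 4095 and 3373 CPM) and summed neuron markers (1161 CPM against 1512 and 1796 CPM) were the lowest of the group. Its mesenchyme and fibroblast sum (8130 CPM against 6437 and 6424 CPM) and bone sum (1041 CPM against 503 and 680 CPM) were the highest. The summed brain neuron markers were at 65.4 to 66.6 CPM in Bai1tm2b/+ and 82.0 to 91.9 CPM in Bai1tm2b/tm2b pools. At P22 the same sum was lower in Bai1tm2b/tm2b (101.5 to 104.1 CPM) than in Bai1tm2b/+ pools (105.5 to 118.2 CPM). The part of these markers in the difference of Meg3 was not tested.

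Cdkn1c had a log2 difference of -0.26 (95% interval -0.45 to -0.07) and Mest of -0.21 (interval -0.41 to -0.02) in the P7 counts, both with an adjusted p of 0.894 (edgeR). H19 and Igf2 had -0.08 (interval -0.29 to 0.14) and -0.17 (interval -0.49 to 0.15). Dlk1 had -0.14 (interval -0.53 to 0.26), at 416 counts in Bai1tm2b/tm2b and 547 in Bai1tm2b/+ libraries. Peg3, Plagl1, Grb10 and Ndn lay between -0.09 and 0.19.

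In the P7 libraries in rounded TPM (11740 genes, limma on log2 of TPM plus 1), 0.153% of all genes were called lower and 0.673% higher. Of the 9 members tested 0 were called and 2 had an unadjusted p under 0.05, which 34.6% of all genes had, and none was free of overlap between genotypes, against 18.2% of all genes. Dlk1 was under the minimum of 5 TPM and was not tested. Peg3 had 25, 22, 17 and 20 TPM in Bai1tm2b/+ and 35, 31, 25 and 37 TPM in Bai1tm2b/tm2b libraries, which met at 25 TPM. Its log2 difference of 0.48 (SE 0.119, adjusted p = 0.0463, limma) was just under the size limit. Grb10 (0.32), Plagl1 (0.31), H19 (0.29), Igf2 (0.27) and Mest (0.25) had differences in the same direction with adjusted p between 0.134 and 0.250 (limma), and Meg3 (-0.21), Cdkn1c (-0.11) and Ndn (-0.02) in the other. The summed mesenchyme and fibroblast markers did not overlap in these libraries (2634 to 3532 TPM in Bai1tm2b/+ and 3814 to 4498 TPM in Bai1tm2b/tm2b), and their part in these differences was not tested.

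Across the 12 libraries in counts, the genes with log2 CPM most like that of Igf2, among 11092 genes with a mean of at least 10 CPM, were Foxp2, a transcription factor (Pearson r = 0.996), Antxr1 (0.996), Sema4d (0.995), Cdh11, a cadherin of mesenchyme (0.995), and Nup93 (0.995). Those most like Meg3 were the non-coding RNA Snhg11 (0.990), Dus3l (0.972), Slc25a27 (0.970), the non-coding RNA Miat (0.969) and Tbkbp1 (0.964). The libraries share age groups, which set most of these values. With each group's mean removed, the residual log2 CPM of H19 and Igf2 had r = 0.848 over the 12 libraries. That of Dlk1 and Meg3 had r = 0.861. On this scale Dlk1 varied little within the other groups, so the value rests mainly on the Bai1tm2b/tm2b pools at P7. In those, Dlk1 had 3.69, 2.83 and 3.31 CPM and Meg3 810, 334 and 421 CPM. The residuals of Igf2 and Meg3 had r = 0.361. Values of like size were not particular to locus partners: Meg3 and Peg3 had 0.789, Plagl1 and Ndn -0.835, and Grb10 and Ndn -0.734. With marker sums, Ndn had 0.940 (neuron), Meg3 -0.891 (supporting cell) and H19 0.802 (central glia). These residuals share each library's scaling and make-up and are given as a description.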

How the data were processed

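RNA-seq libraries of 20 pools of cochleae were used. Per the study's methods, the authors aligned paired-end reads to mm10 with an nf-core pipeline (STAR, Salmon); versions, annotation release and strand use are not given in the sources used here. The authors deposited estimated counts per gene without normalization for 12 libraries and, for 8 P7 libraries, a score of whole numbers that add up to almost the same total in each library, read here as rounded TPM.

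Estimated counts were rounded, filtered with filterByExpr, scaled by TMM and tested with edgeR 4.0.16 (R 4.3.3), with DESeq2 1.42.0 as an alternative. Age and its interaction with genotype were fitted over 12 libraries and genotype within each set of 6. Printed CPM come from the scaling over 12 libraries. TPM were scaled by TMM and tested with limma 3.58.1 on log2 after adding 1, for means of at least 5 TPM. p values were adjusted over all genes tested (Benjamini-Hochberg). Coordinates are from GENCODE M21 (GRCm38). Scripts were tested on simulated data.

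All 10 members are named in every comparison. From the other imprinted and the IGF signalling genes, up to 6 called genes with the largest age change per direction, and every gene called between genotypes, could be named, and for Igf2 and Meg3 the 5 most correlated genes. Igf1r, Igf2r, Igfbp4, and Rian and Mirg in the genotype comparison, were chosen after their values were seen. The members and lists were chosen with earlier results of these data known. Alternatives were scaling, filter, test, pseudocount, size limit, replicate block and each library left out. Nothing shows that pools were separate litters, so p values measure the spread between these libraries.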

Additional observations from a re-analysis of the deposited data

Results flagged for a closer look

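A Dixon test for a library apart from the other 3 of its group was made for the rounded TPM (20 checks at the 95% level), and chance marks about 1 group in 20. It picked out 4 values. Igf2 was at 714 TPM in Bai1tm2b/+ replicate 3, below 957 to 983 TPM in the others. H19, Grb10, Mest and Peg3 were also lowest there (1205, 38, 54 and 17 TPM), whereas Cdkn1c (303 TPM) and Meg3 (51 TPM) were highest there. Plagl1 was at 4 TPM in the same library and at 6 TPM in the others, and Dlk1 was at 2 TPM in Bai1tm2b/+ replicate 1 and at 1 TPM in the others (values rounded to whole numbers). Ndn was at 259 TPM in Bai1tm2b/tm2b replicate 4, above 216 to 223 TPM in the others. No member's change with age differed between genotypes past the threshold by edgeR (10 checks), although DESeq2 called H19.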

How the results depend on the processing

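Scaling to neuron markers gave 13667 and 13716 age calls in Bai1tm2b/+ and Bai1tm2b/tm2b (8445 and 8050 with TMM, 4041 higher and 4404 lower, and 3952 and 4098), of which 80 and 97 were higher. It gave 4964 calls at P22 (487 with TMM), 4933 of them higher against 269 with TMM, 20 in the P7 counts (0 with TMM) and 0 age by genotype (5 with TMM). It turned the age changes of Meg3 (-1.50 and -1.78), Peg3 (-2.69 and -2.59) and Ndn (-2.27 and -2.30), and the P22 genotype differences of Plagl1 (0.35), Mest (0.0787) and Ndn (0.22). In the P7 counts it turned Igf2 (0.18), H19 (0.27), Dlk1 (0.20), Cdkn1c (0.0614), Grb10 (0.31), Mest (0.0985) and Ndn (0.25). Grb10 in the P7 counts, at -0.00135 with TMM, was 0.0289 with library totals, 0.000474 with RLE factors and 0.0141 with upper quartile factors. In rounded TPM without TMM, Cdkn1c was 0.000742 and Ndn 0.0901.

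Without the size limit there were 1904 calls at P22 and 942 in rounded TPM (97 with it). DESeq2 gave 119 age by genotype calls and 48 in the P7 counts, and no filter gave 8 age by genotype calls. In rounded TPM a pseudocount of 5 gave 49 calls, a minimum of 1 TPM or no filter 0, and no TMM 293. Of the members, Igf2 at P22 was also called with library totals (0.60), RLE factors (0.54) and no filter (0.54), Mest with age in Bai1tm2b/tm2b with library totals (-0.50), and Peg3 in rounded TPM without TMM (0.58) and without Bai1tm2b/+ replicate 1 (0.54). The causes were not tested.

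Leaving out 1 library gave 270 to 588 calls at P22, 0 to 336 in rounded TPM, 0 in the P7 counts, 0 to 101 age by genotype, 8036 to 8574 with age in Bai1tm2b/+ and 7649 to 8062 in Bai1tm2b/tm2b. It turned small differences of Peg3 (-0.0977 to 0.26), Ndn (-0.24 to 0.0526) and Meg3 (-0.49 to 0.21) age by genotype, of Peg3 (-0.0479 to 0.24) and Plagl1 (-0.23 to 0.039) at P22, and of Grb10 (-0.0735 to 0.0862), Ndn (-0.23 to 0.0479), Peg3 (-0.15 to 0.19) and Plagl1 (-0.0601 to 0.38) in the P7 counts.

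With the replicate number as a block there were 466 calls at P22, 0 in the P7 counts, 0 in rounded TPM and 2 age by genotype, and Igf2 was called at P22 (0.51, adjusted p = 0.0100, edgeR). No sign was found that the numbers pair the samples. Deviations of same-numbered libraries correlated at -0.09 to 0.02 at P22, -0.26 to 0.08 in the P7 counts and -0.35 to 0.01 in rounded TPM. Not every library correlated best with its own number. With so few libraries per group, this check cannot exclude a pairing. No paired analysis was possible for age because the groups compared share no replicate numbers. The read depth behind the rounded TPM is unknown, and Dlk1 at P22 rests on 41 counts.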
